A study of Mus musculus with 8 samples.

Results

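The genes described here are mouse zinc finger genes of the Zfp name series. They were chosen as the rows whose symbol is Zfp followed by a number and at most 1 letter, with a mean TPM of at least 5 over all 8 samples. TPM, the unit of the deposited tables, is a level per transcript length, scaled to the same total in every sample. Of 55401 rows in each deposited table, 402 carried such a name and 202 reached the limit. Within the name series, the members were therefore chosen by their level, the mean TPM, and not by their difference between conditions. The name series and the limit were themselves chosen with earlier results of these data known, so the choice was not blind to the comparison. Just inside the limit lay Zfp689 (mean TPM 5.06), Zfp960 (5.11) and Zfp597 (5.20), and just outside lay Zfp626 (4.98), Zfp748 (4.93) and Zfp319 (4.88). Of the 200 named genes under the limit, 23 had a TPM of 0 in every sample.

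RNA was sequenced from AML12, a hepatocyte line established from the liver of a mouse transgenic for human TGF-alpha. The comparison was between 4 control dishes and 4 dishes that received 1 h of Opti-ELF-WMF, and it asks which transcripts differ after that exposure. Opti-ELF-WMF is a weak pulsed magnetic field with a peak of 100 mG, a pulse width of 4 ms and a pulse frequency between 1 and 8 Hz. All dishes held the same untransfected line, and control dishes were kept in a separate incubator of the same model, so that the exposure and the incubator cannot be told apart. Control and exposed dishes were set up at the same time from the same batch of cells, so p-values measure the spread between dishes of that batch, which may be technical. Of 15 hepatocyte markers, 13 had a mean TPM of at least 1, led by the keratins Krt8 (2305) and Krt18 (1967), whereas Apoa2 (0.03) and Afp (0.98) were under 1. Vim (1407) was the single mesenchymal marker above that level, Cd68 (1.60) the single macrophage marker, and the endothelial markers Pecam1, Cdh5 and Kdr were all under it.

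A zinc finger is a short loop of protein held in shape by a zinc ion. In the C2H2 type a pair of cysteines and a pair of histidines hold the zinc, and rows of such fingers read DNA. Many mammalian C2H2 genes also encode a KRAB domain near the start of the protein, which recruits the corepressor TRIM28 and, through it, the methyltransferase SETDB1, so that transposons and other targets are silenced. KRAB genes arose by repeated local duplication and lie in clusters. A pair of KRAB proteins, ZFP57 and ZFP445, keep imprints in the embryo. Other genes of the same name series encode proteins that bind RNA or act in ubiquitylation.

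The name series is not the same as the transcription factors, since it takes in genes such as Zfp36, Zfp207 and Zfp598 with other known roles, some of which encode C2H2 fingers. In the longest coding sequence of each gene (GENCODE M21), 197 of 202 members encoded at least 1 C2H2 pattern, with a median of 9 and a highest count of 36, in Zfp142. The other 5 were Zfp36, Zfp185, Zfp330, Zfp365 and Zfp703. Zfp36 encodes tristetraprolin, which binds AU-rich mRNA through CCCH fingers, and it was the only member with a CCCH pattern. A KRAB pattern was found in 94 members and not in 108. Members without KRAB, in the text and figures, are those in which the pattern was not found, which does not exclude the domain. The stretches below show the coding bases of the first finger of 3 members with small p-values, and of the first CCCH finger of Zfp36. Capitals mark the codons of the cysteines and histidines that hold the zinc.
Zfp143: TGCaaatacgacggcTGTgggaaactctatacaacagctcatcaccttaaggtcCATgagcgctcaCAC
Zfp692: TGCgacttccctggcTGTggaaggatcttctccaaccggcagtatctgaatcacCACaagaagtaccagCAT
Zfp329: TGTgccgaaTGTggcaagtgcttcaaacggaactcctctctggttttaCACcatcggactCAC
Zfp36: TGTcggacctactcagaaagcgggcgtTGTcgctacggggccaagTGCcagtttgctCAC
On GRCm38 the Zfp143 stretch lies on the plus strand within chr7:110077126-110080285 and is split between exons 8 and 9. That of Zfp692 lies on the plus strand within chr11:58310446-58311476, split between exons 9 and 10. Those of Zfp329 (chr7:12810978-12811040) and Zfp36 (chr7:28378158-28378217) each lie in exon 2, on the minus strand.

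The second set shows how alike some members are in part of their sequence. Its 60 bases are shorter than a read, so they do not tell which members can be measured apart. In a cluster on chromosome 2, the first 60 bases of the KRAB stretch, in exon 2 of 4, were the same in Zfp966, Zfp967, Zfp968, Zfp973 and Zfp970. Zfp971 differed from them at 1 base and Zfp931 at 2, which stand in capitals.
Zfp966: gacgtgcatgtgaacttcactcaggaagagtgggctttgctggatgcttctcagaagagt
Zfp971: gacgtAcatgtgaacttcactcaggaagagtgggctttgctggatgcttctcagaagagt
Zfp931: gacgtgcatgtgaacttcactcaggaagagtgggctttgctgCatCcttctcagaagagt
These lie at chr2:175923038-175923097 (minus strand), chr2:178031273-178031332 (plus strand) and chr2:178069872-178069931 (minus strand). Read-sized stretches of 150 bases were then compared between all transcripts of the annotation. In 18 members, 14 of them with KRAB, over 10% of these stretches of the transcript with the longest coding sequence also occurred in another gene. The share was 100.0% in Zfp967, 98.6% in Zfp968, 73.8% in Zfp973 and 68.9% in Zfp966. Values of these members depend on how the quantification divided shared reads and are uncertain.

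The members were expressed at modest levels. In such bulk RNA, fewer cells with a transcript and less of it per cell cannot be told apart. Their median mean TPM was 13.6, with 73 members between 5 and 10, 73 between 10 and 20, 47 between 20 and 50, 7 between 50 and 100, and 2 at 100 or over. Members with KRAB had a median of 9.58 and members without it 17.2. Together the members made up 0.375% of all TPM in both conditions. Their summed TPM was 3642, 3798, 3804 and 3761 in the 4 control dishes and 3580, 3832, 3797 and 3811 in the exposed dishes. The groups overlapped, and their means of 3751 ± 75.2 and 3755 ± 118 (SD, n = 4) differed by less than the spread between dishes. This small difference of 3.91 turned to -73.2, -84.7 and -80.1 after median-of-ratios scaling, upper-quartile scaling and rescaling without mitochondria-encoded genes. The spread of a member over dishes of 1 condition, as a coefficient of variation, had a median of 6.49%, against 4.91% over all 9788 tested genes of mean TPM at least 5. Within a TPM of 5 to 10 these were 7.44% and 8.09%, within 10 to 20 they were 6.46% and 6.31%, and within 20 to 50 they were 5.63% and 4.92%.

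No member had an adjusted p under 0.05 by limma with Benjamini-Hochberg adjustment over all 12122 tested genes, and neither had any other gene (0% called). Of the 202 members, all of which were tested, 4 were higher and 12 lower at an unadjusted p under 0.05. Over all tested genes these shares were 12.0% higher and 3.65% lower, and over tested genes of mean TPM at least 5 they were 14.3% and 3.40%. Of the members, 1.98% were higher and 5.94% lower. Within a TPM of 5 to 10, 1.37% of 73 members were higher and 8.22% lower, against 3.16% and 6.03% of all tested genes at that level. Within 10 to 20, 1.37% of 73 members were higher and 4.11% lower, against 5.31% and 3.74% of all tested genes. Every exposed dish lay above every control dish in 2 members and below in 5, where all tested genes gave 8.01% and 1.86% and those of mean TPM at least 5 gave 9.56% and 1.62%. The difference was above 0 in 94 members (46.5%), against 63.7% of all tested genes and 68.6% of those of mean TPM at least 5. Other scalings divide each dish by its own factor. They lower the median difference of all tested genes and alter the spread between dishes, and so change these counts. After median-of-ratios scaling 1 member was higher and 21 lower, after upper-quartile scaling 1 and 21, and after rescaling without mitochondria-encoded genes 1 and 19. Over all tested genes, the shares were then 5.55%, 4.85% and 5.72% higher and 6.23%, 6.61% and 5.58% lower. Among all called genes, 76.6% were higher as deposited and 47.1%, 42.3% and 50.7% under these scalings, and among called members 25% became 4.55%, 4.55% and 5.00%. Control dish 3 moved the count of lower members most, with 4 left without it, and control dish 1 followed with 19. Over all tested genes, 2.72% and 4.23% were then lower.

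On log2(TPM + 1), the median difference (exposed minus control) of the members was -0.011, against 0.026 over all tested genes and 0.032 over those of mean TPM at least 5. The members' median turned to 0.0017, 0.0011 and 0.012 without control dish 3, control dish 4 or exposed dish 1. No member differed by more than 0.3, and 7 differed by more than 0.2, all of them lower. These were Zfp329, Zfp597, Zfp692, Zfp966, Zfp160, Zfp771 and Zfp874b, and the last 3, which are named because of this count, had adjusted p values over 0.3. A fold change on this scale understates that of low genes. Differences of all genes also depended on their level, with medians of 0.0018 at a TPM of 5 to 10, 0.015 at 10 to 20 and 0.028 at 20 to 50, so that members are best compared within a level.

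**Figure D1:**
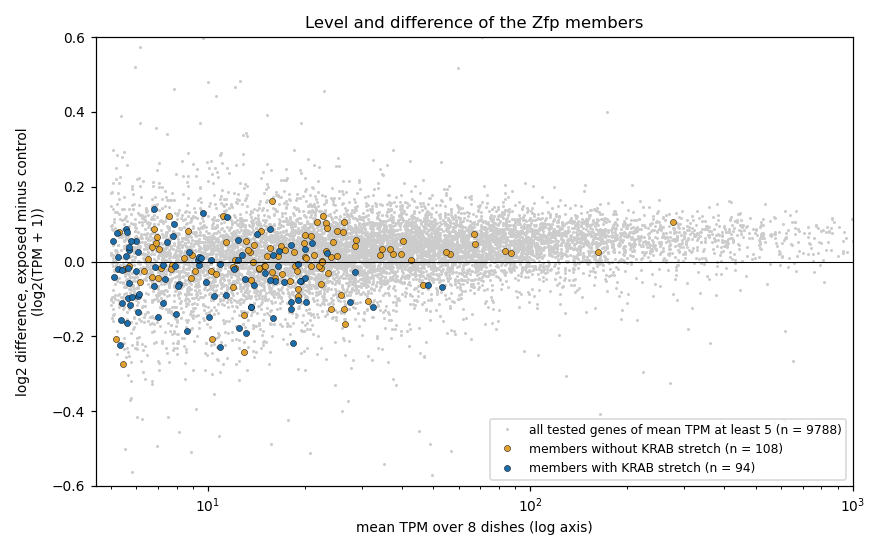
Mean TPM over 8 dishes (log axis) against the log2 difference, exposed minus control, for the 108 members without KRAB (orange), the 94 members with KRAB (blue) and the other tested genes of mean TPM at least 5 (grey). Grey points lean above 0 at high levels, whereas most blue points lie at low levels and below 0; 178 genes lie outside the axes.

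Members in which a KRAB stretch was found lay lower than those in which none was found. Their median difference was -0.035, with 33 of 94 above 0. At an unadjusted p under 0.05, 1 was higher (1.06%) and 6 lower (6.38%). In members without KRAB the median was 0.012, with 61 of 108 above 0, and 3 were higher (2.78%) and 6 lower (5.56%). Over all tested genes these shares were 12.0% and 3.65%, and over those at a TPM of 5 to 10 they were 3.16% and 6.03%. Of the 49 KRAB members at that level, 2.04% were higher and 8.16% lower. The median of members without KRAB was -0.016, -0.020 and -0.016 under the 3 other scalings and -0.0029 without exposed dish 2. The median of KRAB members was below 0 under every alternative tried, from -0.065 after upper-quartile scaling to -0.016 when 1 dish was left out. Within a TPM of 5 to 10 the medians were -0.018 (49 KRAB members) and -0.011 (24 members without KRAB). Within 10 to 20 they were -0.053 (35 members) and -0.012 (38 members), and within 20 to 50 they were -0.043 (9 members) and 0.018 (38 members). These are descriptions without a test, since members are not replicates of a condition. Without the members that shared over 10% of their stretches, the KRAB median was -0.025 over 80 members, of which 1 was higher (1.25%) and 2 lower (2.5%).

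**Figure D2:**
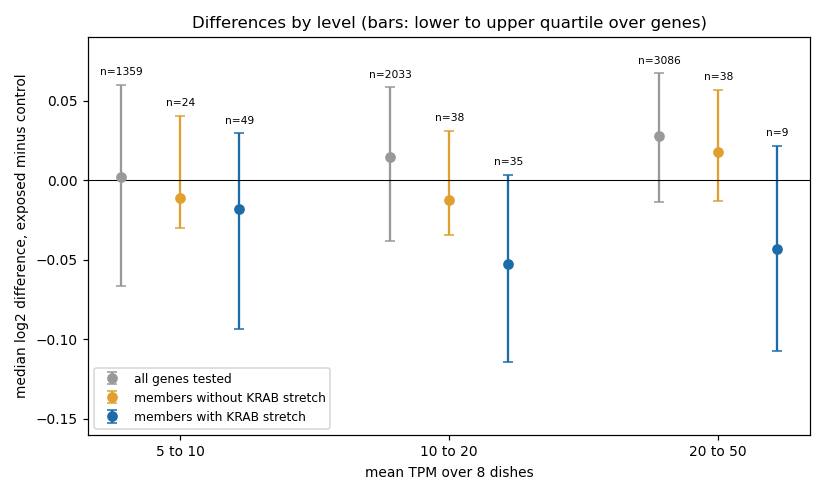
Median log2 difference, exposed minus control, in 3 classes of mean TPM for all tested genes (grey), members without KRAB (orange) and members with KRAB (blue), with bars from the lower to the upper quartile over genes. Members with KRAB have the lowest median in each class, from -0.018 to -0.053. The positive median of members without KRAB at 20 to 50 is on the deposited scale.

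With the dish as the unit, the mean log2 level of KRAB members, less that of all tested genes of mean TPM at least 5, was -1.70, -1.62, -1.63 and -1.66 in control dishes. It was -1.75, -1.75, -1.67 and -1.70 in exposed dishes. Exposed dishes 1 and 2 lay below every control dish, and exposed dishes 3 and 4 lay within the range of the controls. The means were -1.66 ± 0.037 and -1.72 ± 0.041 (SD, n = 4), so the groups overlapped. In members without KRAB the same measure was -0.964 ± 0.017 in control and -0.985 ± 0.026 in exposed dishes (SD, n = 4), also with overlap. The reference genes had a median mean TPM of 30.8, against 9.58 in KRAB members, so this comparison is not within a level. KRAB members differed from the others in more than the pattern. They had a median of 11.5 fingers against 7, a median GC content of 40.8% against 51.3% and a median transcript length of 3088 against 3982 bases. Tested genes with a GC content up to the upper quartile of KRAB members had median differences of 0.0025 (320 genes) at a TPM of 5 to 10, 0.019 (471 genes) at 10 to 20 and 0.029 (658 genes) at 20 to 50. The part of finger count, length and level within these classes was not tested.

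Other RNA moved with the groups. Transcripts of the mitochondrial genome made up 8.94% ± 0.34 of TPM in control dishes and 7.04% ± 0.76 in exposed dishes (SD, n = 4). Its 13 protein-coding genes were all lower at an unadjusted p under 0.05, where 3.65% of all tested genes were lower. The nuclear noncoding RNAs Malat1 (log2 difference -0.41) and Neat1 (-0.30) were lower too, with limma adjusted p values of 0.139 and 0.122. Their part in the members' values was not tested.

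Of the members without KRAB, Zfp143 had the smallest p-value. Zfp143 (chr7:110061217-110095394) encodes an activator that binds promoters through 7 fingers. Its TPM was 14.8, 14.8, 15.5 and 14.4 in control dishes and 16.3, 16.5, 16.6 and 17.6 in exposed dishes. All exposed dishes lay above all control dishes, with a log2 difference of 0.16 (SE 0.042, limma adjusted p = 0.139). The exact two-sided permutation test gave p = 0.0286, the smallest that 4 against 4 dishes allow. The other member without overlap in this direction was Zfp747, a KRAB gene named here because of this count, with a log2 difference of 0.058.

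Zfp692 (chr11:58307069-58314627), a repressor also known as AREBP, lay lower after exposure. Its TPM was 10.4, 11.2, 12.0 and 11.1 in control dishes and 9.30, 10.02, 9.03 and 9.70 in exposed dishes. The groups did not overlap, and the log2 difference was -0.21 (SE 0.056, limma adjusted p = 0.142, exact permutation p = 0.0286).

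Zfp329 (chr7:12804977-12818858), with 12 fingers, had the largest difference of all members. Its TPM was 5.61, 6.21, 6.65 and 5.80 in control dishes and 4.32, 5.27, 4.76 and 5.04 in exposed dishes. The highest exposed dish was below the lowest control dish, and the log2 difference was -0.27 (SE 0.075, limma adjusted p = 0.144, exact permutation p = 0.0286).

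Zfp597 (chr16:3858321-3884561), with 7 fingers, and Zfp219 (chr14:52006077-52020733), with 9 fingers and known as a partner of SOX9 in cartilage, also showed no overlap. Zfp597 had TPM values of 5.95, 5.32, 5.75 and 5.55 in control dishes and 4.78, 4.58, 4.63 and 5.02 in exposed dishes (log2 difference -0.21, limma adjusted p = 0.160). Zfp219 had values of 26.8, 25.9, 27.3 and 27.1 against 25.6, 25.6, 24.5 and 24.8 (log2 difference -0.089, limma adjusted p = 0.251). The difference of Zfp219 was the smallest among the 16 members with an unadjusted p under 0.05.

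In the remaining members without KRAB among the smallest p-values, the groups overlapped. Zfp397 had TPM values of 25.2, 29.3, 29.1 and 29.5 in control dishes and 23.0, 25.2, 25.1 and 26.9 in exposed dishes. Only control dish 1 fell among the exposed dishes, and the log2 difference was -0.17 (limma adjusted p = 0.231). Zfp322a, known from pluripotent cells, had a log2 difference of -0.13 (limma adjusted p = 0.251). Zfp385a, a partner of p53, and Zfp414 had differences of 0.11 and 0.12 (limma adjusted p = 0.261 and 0.288), and 17.8% of the stretches of Zfp414 also occurred in Gm20507. Zfp146, Zfp703 and Zfp35 had differences of 0.075, 0.11 and 0.071, with unadjusted p values above 0.05. Zfp703 belongs to the NET family of corepressors and is one of the members without a C2H2 pattern.

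**Figure D3:**
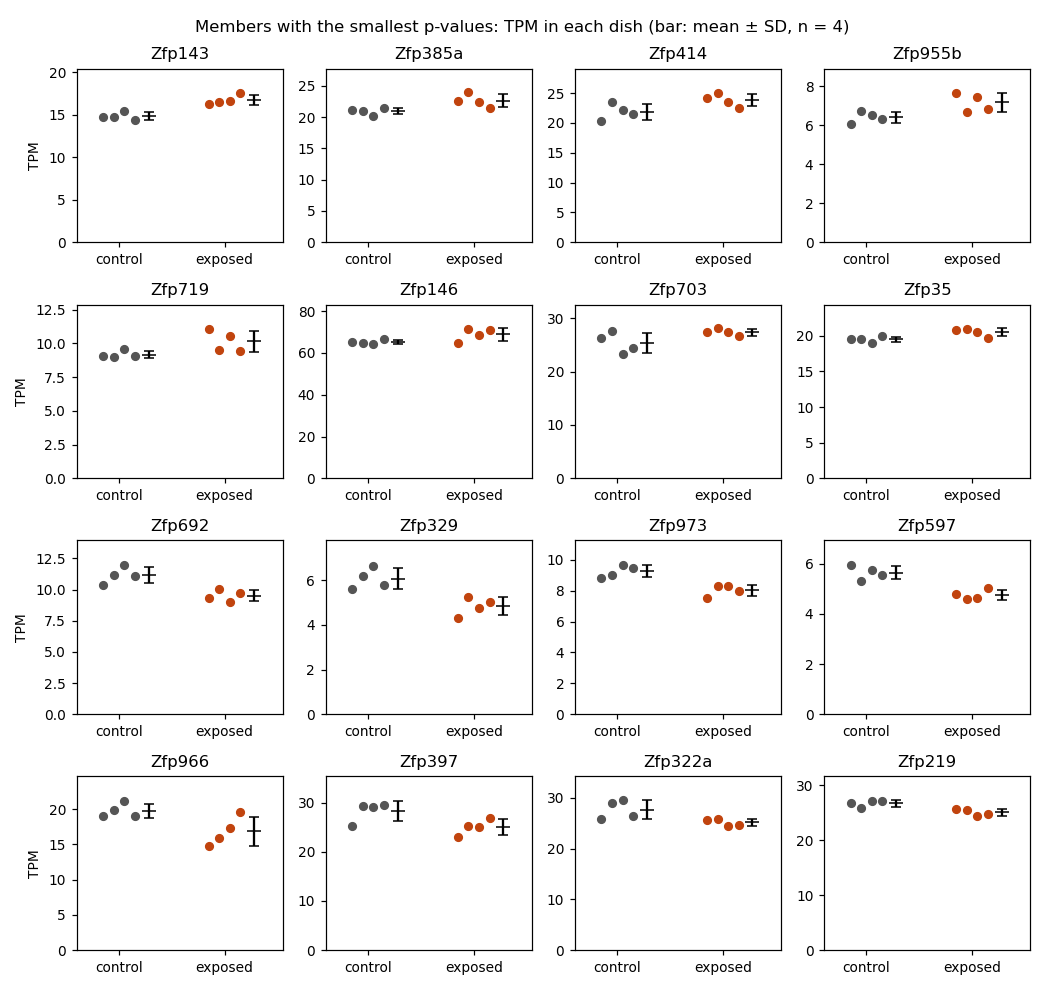
TPM in each of 4 control (grey) and 4 exposed (red) dishes for the 8 members of lowest p-value on either side, with mean ± SD beside the points. The dishes of both groups are apart in Zfp143, Zfp692, Zfp329, Zfp973, Zfp597 and Zfp219 and overlap in the other 10 members.

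Among KRAB members with the smallest p-values, Zfp955b and Zfp719 lay higher and Zfp973 and Zfp966 lower. Zfp955b (chromosome 17) had TPM values of 6.07, 6.75, 6.52 and 6.32 in control dishes and 7.67, 6.70, 7.47 and 6.85 in exposed dishes. Exposed dish 2 fell within the controls, and the log2 difference was 0.14 (limma adjusted p = 0.310). Of the stretches of Zfp955b, 6.93% also occurred in Zfp955a, named because of this, which had a log2 difference of -0.065. Zfp719 had a log2 difference of 0.13 (limma adjusted p = 0.341).

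Both lower ones belong to the chromosome 2 cluster. Zfp973 (chr2:176670522-176719085) had TPM values of 8.81, 9.04, 9.67 and 9.48 in control dishes and 7.51, 8.27, 8.30 and 7.95 in exposed dishes. The groups did not overlap, and the log2 difference was -0.19 (SE 0.054, limma adjusted p = 0.160, exact permutation p = 0.0286). Zfp966 (chr2:175918881-175931100) had TPM values of 19.0, 19.9, 21.1 and 19.0 in control dishes and 14.8, 15.9, 17.4 and 19.6 in exposed dishes. Exposed dish 4 fell within the controls, and the log2 difference was -0.22 (limma adjusted p = 0.216).

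Because these genes share most of their sequence, they were also summed with their near-identical copies, a choice made after the values were seen. Zfp973 and Zfp965 together averaged 13.99 ± 1.39 TPM in controls and 11.9 ± 0.99 TPM in exposed dishes (SD, n = 4), a log2 difference of -0.21 with an exact permutation p of 0.0571. Their summed values were 12.0, 14.1, 14.5 and 15.3 against 11.4, 11.6, 13.4 and 11.2, so the sum overlapped where Zfp973 alone did not. Zfp966, Zfp967, Zfp968 and Zfp969 together averaged 53.0 ± 4.02 TPM in controls and 47.1 ± 4.79 TPM in exposed dishes (SD, n = 4), a log2 difference of -0.17 with an exact permutation p of 0.114. Zfp969, in which 100.0% of the stretches of Zfp967 occurred, was listed at 0 in 7 dishes.

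The members lay on 20 chromosomes, with 48 on chromosome 7 and 25 on chromosome 17. With neighbours no more than 1000000 bp apart, 67 members formed 9 clusters of at least 5. The cluster on chromosome 2 (174643534 to 178078476) held 7 members, all with KRAB, and all 7 had a difference below 0, with a median of -0.13 and a range from -0.22 to -0.019. At an unadjusted p under 0.05, 2 of them were lower, where 3.65% of all tested genes were. Zfp970, the most abundant of these, had TPM values of 32.9, 35.4, 32.4 and 34.5 in control dishes and 28.5, 29.0, 32.9 and 33.9 in exposed dishes. The groups overlapped. All 7 share some 150-base stretches with other genes, from 2.46% in Zfp931, 7.25% in Zfp970 and 9.18% in Zfp971 to 100.0% in Zfp967. Zfp966, Zfp967 and Zfp968 share most of theirs with each other and Zfp973 with Zfp965, so the 7 values are not separate measurements.

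Other clusters varied in direction. On chromosome 13 (66669928 to 67827002), 6 of 7 members lay below 0 with a median of -0.089, and on chromosome 17 (21008903 to 23599487) 8 of 11 did, with a median of -0.061. None of these 18 members had an unadjusted p under 0.05. A second cluster on chromosome 17 (32765496 to 33631779) had a median of 0.034, and 2 of its 7 members, Zfp955b and Zfp414, were higher. On chromosome 7 (27689340 to 28380253), 2 of 6 members were lower, the KRAB genes Zfp607a and Zfp780b, which are named because of this count. At the same threshold, 12.0% of all tested genes were higher and 3.65% lower.

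**Figure D4:**
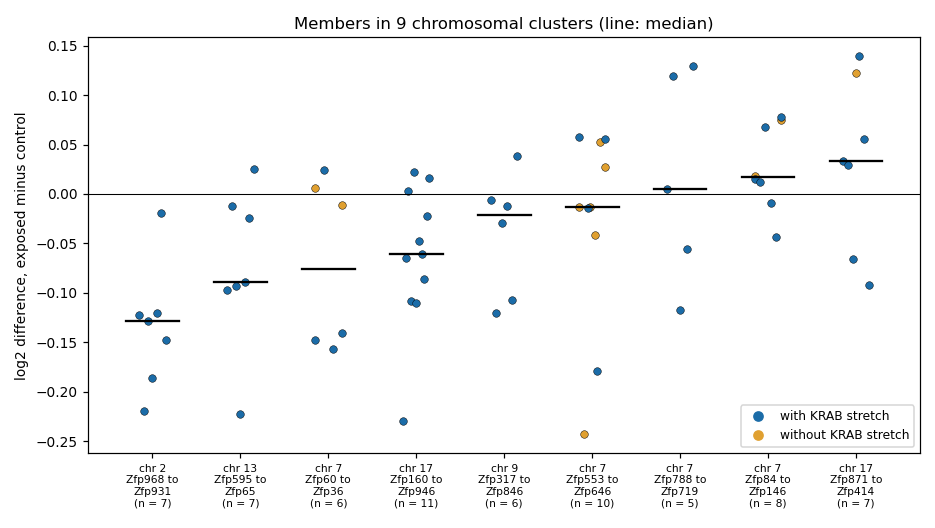
Log2 difference, exposed minus control, of 67 members in 9 chromosomal clusters, ordered by the cluster median (black line), with KRAB members in blue and others in orange. All 7 members of the chromosome 2 cluster lie below 0, whereas the other clusters have members on both sides.

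The most abundant members did not stand apart between conditions. Zfp706, known from the exit of embryonic stem cells from self-renewal, had TPM values of 271, 293, 249 and 255 in control dishes and 266, 315, 284 and 285 in exposed dishes. The groups overlapped, with a log2 difference of 0.11 (limma adjusted p = 0.439). Zfp207, which encodes the spindle protein BuGZ, had 160 ± 7.39 and 163 ± 1.99 (SD, n = 4), a log2 difference of 0.027 that was below 0 under all 3 other scalings. The differences of Zfp106, Zfp637, Zfp384 and Zfp664, of 0.022, 0.029, 0.021 and 0.026, turned below 0 under the same scalings. Zfp91, a ubiquitin ligase, had a TPM of 66.1 ± 0.99 and 68.3 ± 1.72 (SD, n = 4), a difference smaller than the sum of these spreads, with limma adjusted p = 0.478.

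Members known for a role other than DNA-bound control showed no difference past the threshold. Zfp36 had TPM values of 19.1, 18.9, 18.7 and 18.1 in control dishes and 19.4, 17.3, 18.6 and 19.0 in exposed dishes. The controls lay within the range of the exposed dishes, with a log2 difference of -0.011 ± 0.044 (SE) that turned to 0.020 without exposed dish 2. Zfp598, the ubiquitin ligase at collided ribosomes, had 39.5 ± 1.40 and 40.1 ± 0.81 (SD, n = 4). Zfp622, a factor of large ribosomal subunit maturation, had 36.2 ± 1.33 and 37.2 ± 2.47 (SD, n = 4). In both the difference was within the spread between dishes and its sign depended on the dishes left out and, in Zfp598, on the scaling. Zfp638 and Zfp106 bind RNA, Zfp346 binds double-stranded RNA, Zfp326 acts in elongation and splicing, and Zfp330 is a nucleolar protein. Together with Zfp697, their log2 differences lay between -0.044 (Zfp346) and 0.057 (Zfp326), with limma adjusted p values from 0.686 to 0.983. Of those, Zfp106, Zfp346 and Zfp638 changed sign when 1 dish was left out, and Zfp106 and Zfp638 also under the 3 other scalings.

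A list of 18 mRNA decay genes held the paralogues of tristetraprolin, Zfp36l1 and Zfp36l2, and the deadenylation and decapping machinery, and 17 of them were tested. At an unadjusted p under 0.05, 2 were higher (11.8%) and 0 lower, against 12.0% and 3.65% of all tested genes. The median log2 difference was 0.035, against 0.032 over all tested genes of mean TPM at least 5. The median TPM of the list was 48.7. Of all tested genes at a TPM of 20 to 50, 9.66% were higher and 3.31% lower, with a median difference of 0.028. At 50 to 100 these were 19.6%, 1.78% and 0.042. Cnot9, a subunit of the CCR4-NOT deadenylase, had TPM values of 55.0, 56.8, 57.9 and 58.9 in control dishes and 60.7, 61.9, 64.5 and 61.6 in exposed dishes. The groups did not overlap, and the log2 difference was 0.12 (limma adjusted p = 0.142). Pabpc1, the cytoplasmic poly(A)-binding protein, had a difference of 0.085 (limma adjusted p = 0.168), and Cnot11 of 0.075 (limma adjusted p = 0.340).

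The cofactors of KRAB proteins had mostly positive differences, as had other genes of their level. Of 38 listed genes, 35 were tested, and 10 were higher and 1 lower at an unadjusted p under 0.05, with a median log2 difference of 0.039. Their median TPM was 69.1, and 28.6% of them were higher and 2.86% lower. Of all tested genes at a TPM of 50 to 100, 19.6% were higher and 1.78% lower, with a median difference of 0.042. The tested cofactors ranged from a mean TPM of 8.56 (Dnmt3a) to 476 (Sumo2). Of all tested genes at 20 to 50, 9.66% were higher and 3.31% lower, and at 100 and over 38.2% and 2.64%. After the 3 other scalings 4, 4 and 5 cofactors passed in either direction, and the median was 0.0096, 0.0052 and 0.0092. Over all tested genes 5.55%, 4.85% and 5.72% were then higher and 6.23%, 6.61% and 5.58% lower. Rbbp7, a histone-binding subunit of deacetylase complexes, had TPM values of 236, 223, 229 and 232 in control dishes and 249, 256, 250 and 246 in exposed dishes. The groups did not overlap, and the log2 difference was 0.12 (SE 0.025, limma adjusted p = 0.122). The maintenance methyltransferase Dnmt1 had a difference of 0.13 (limma adjusted p = 0.139) and the deacetylase Hdac2 of 0.092 (limma adjusted p = 0.164), both without overlap. Trim28 had TPM values of 400, 410, 439 and 417 in control dishes and 464, 474, 430 and 429 in exposed dishes. The groups overlapped, with a log2 difference of 0.11 (limma adjusted p = 0.249). Setdb1 had 22.1 ± 0.91 and 21.96 ± 0.66 (SD, n = 4), with a log2 difference of -0.0098. The only cofactor lower at an unadjusted p under 0.05 was Morc3, an ATPase that silences transposons, named because of this count. Its difference was -0.24 (limma adjusted p = 0.312).

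**Figure D5:**
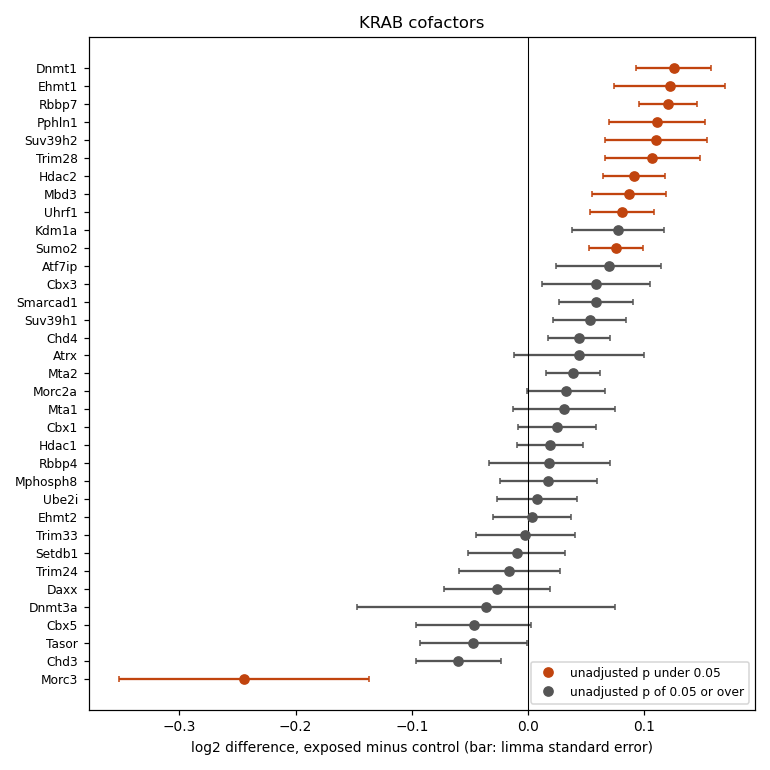
Log2 difference, exposed minus control, of the 35 tested KRAB cofactors with the limma standard error, coloured red where the unadjusted p was under 0.05. On the deposited scale 10 red points lie above 0 and the red point of Morc3 lies below, whereas Setdb1 lies near 0.

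At the lower end of the chosen levels, Zfp689, Zfp960 and Zfp597 stood near the limit. Zfp689 had TPM values of 6.01, 4.48, 4.60 and 4.71 in control dishes and 5.91, 4.62, 5.57 and 4.61 in exposed dishes. Dishes on either side of the limit occurred in both groups, and the log2 difference of 0.055 turned to -0.00081 without exposed dish 1. Zfp960 had a difference of -0.041 that turned to 0.015 without control dish 4, and 55.6% of its stretches also occurred in Zfp97. The 104 genes of the name series under the limit that were tested had a median difference of -0.018. Over all tested genes under a TPM of 5 it was -0.024. At an unadjusted p under 0.05, 1 was higher (0.962%) and 3 lower (2.88%). Of all tested genes under a TPM of 5, 2.14% were higher and 4.71% lower.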

How the data were processed

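RNA from 4 control and 4 exposed dishes had been made into stranded poly(A) libraries and sequenced by the authors. They deposited TPM per gene, 1 table per dish. The submitters' processing notes name Trimmomatic 0.39, STAR 2.7.4a, RSEM 1.3.3 and mm10, without their roles. TPM sums to the same total in each dish and keeps no read depth, so neither depth nor counting error is known, and a fall in abundant transcripts raises all others.

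Genes with TPM of at least 1 in at least 4 of 8 samples (12122) were compared with limma 3.58.1 (lmFit, eBayes with a trend) in R 4.3.3 on log2(TPM + 1), pseudocount 1, with Benjamini-Hochberg adjustment over all of them. Single values were also compared by an exact two-sided permutation test over 70 assignments. The script was tested on simulated data whose changes were larger than any difference of a member. That test does not tell whether differences of the members' size would be found.

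The members and lists were chosen with earlier results of these data known. The text names the 8 members of lowest p-value on either side, the 8 with the highest and the 3 with the lowest mean TPM, the 3 genes just below the limit, 10 members with another known role, the 3 genes of lowest p-value per list, Trim28 and Setdb1. Names outside this rule are marked or were chosen after their values were seen. Positions and coding sequences came from GENCODE M21 on GRCm38, the build that mm10 names, which matched all 202 members. Proteins were translated from the longest coding sequence, in place of the RefSeq proteins planned, and searched for patterns: C2H2 (2 to 4 residues between cysteines, 12 in the middle, 3 to 5 between histidines), CCCH and, in the first 400 residues, KRAB. A missing pattern does not exclude a domain. Counts of shared sequence used 150-base stretches, the read length, of the transcript with the longest coding sequence. They took no account of reads being sequenced in pairs. Same-numbered dishes did not deviate together (correlations from -0.042 to 0.026), so the numbers were not used as pairs. The largest share of identical values between any pair of dishes was 3.79%. Other settings tried were the pseudocount, filter, scaling and TPM limit, the replicate block, shared sequence and leaving out each dish.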

Additional observations from a re-analysis of the deposited data

Results flagged for a closer look

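In 88 groups of 4 dishes, among them those of members named by the rule and of the members' summed TPM, 6 had 1 dish far from the others as judged by Dixon's ratio. Zfp950, named outside the rule, is not among the 6 and is described below. About 1 in 20 groups, here 4.4, would do so by chance. The summed TPM of the members was 3580 in exposed dish 1, against 3797 to 3832 in the other exposed dishes. Zfp664 also had its low value in exposed dish 1 (53.0, against 55.9 to 56.5). In control dish 1, Zfp397 was at 25.2, against 29.1 to 29.5 in the other controls, and Zfp689 was at 6.01, against 4.48 to 4.71. Zfp719 was at 9.58 in control dish 3, against 9.02 to 9.05, and Zfp330 was at 33.5 in exposed dish 3, against 35.5 to 35.7. These are given as values, and their causes were not tested.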

How the results depend on the processing

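Depth is unknown, 4 dishes a condition limit precision, and shared reads make at least 18 members uncertain. The 18 were counted on 1 transcript per gene, and in some of the rest another transcript shared more, such as 43.5% in Zfp87 and 26.0% in Zfp652. After median-of-ratios scaling, upper-quartile scaling and rescaling without mitochondria-encoded genes, the median of all tested genes moved from 0.026 to -0.0013, -0.0053 and -0.0015. Under these scalings 1, 1 and 1 members were higher and 21, 21 and 19 lower at an unadjusted p under 0.05, and the groups did not overlap in 1 and 1 higher members (the first 2 scalings) and in 13, 15 and 11 lower members. Over all tested genes, 3.80% and 3.37% of the genes did not overlap upward (the first 2 scalings) and 3.82%, 4.03% and 3.25% downward. The median of members without KRAB was -0.016, -0.020 and -0.016, the called cofactors numbered 4, 4 and 5, the cofactor median was 0.0052 after upper-quartile scaling, and the summed TPM differed by -73.2, -84.7 and -80.1. In the same order, the differences became -0.0027, -0.0070 and -0.0031 in Zfp207, -0.0067, -0.011 and -0.0071 in Zfp106, -0.00025, -0.0046 and -0.00064 in Zfp637, and -0.0079, -0.012 and -0.0083 in Zfp384. They became -0.0028, -0.0070 and -0.0031 in Zfp664, -0.0077, -0.012 and -0.0081 in Zfp598, and -0.025, -0.029 and -0.025 in Zfp638. With a TPM limit of 2, 8 lower members did not overlap, and with a limit of 10 this number was 2 and 6 were lower at an unadjusted p under 0.05, from fewer members. Without members of over 10% shared stretches, an alternative added after the data were seen, 3 were higher (1.63%) and 8 lower (4.35%), with a median of -0.0076.

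Leaving out 1 dish at a time, the count of lower members ranged from 4 (without control dish 3) to 19 (without control dish 1), that of higher members from 1 (without control dish 1) to 5, and the cofactor count from 7 (without control dish 1 or 4) to 11. Without control dish 2, 7 members were lower, and without control dish 3 or 4 or exposed dish 3, 2 were higher. Over all tested genes, the shares ranged from 8.79% to 13.4% higher. They ranged from 2.72% (without control dish 3) to 4.23% (without control dish 1) lower. Members without overlap ranged from 2 to 6 higher (6 without control dish 2 or exposed dish 1 or 4) and from 5 to 15 lower (15 without control dish 1, and 10, 11 and 12 without exposed dishes 2, 3 and 4). With fewer dishes, all tested genes overlapped less too. Their share without overlap rose from 8.01% to between 9.06% and 13.4% higher, and from 1.86% to between 2.48% and 4.03% lower. The 4.03% was without control dish 1. The median ranged from -0.015 to 0.012 over all members and from -0.0029 to 0.031 over those without KRAB. The summed TPM difference ranged from -32.5 to 62.3, below 0 without control dish 1 or exposed dish 2, 3 or 4. The differences that changed sign ranged from -0.022 to 0.083 (Zfp106), -0.00051 to 0.051 (Zfp384), -0.031 to 0.020 (Zfp36), -0.10 to 0.034 (Zfp346), -0.0016 to 0.038 (Zfp598), -0.0056 to 0.070 (Zfp622), -0.043 to 0.028 (Zfp638), -0.00081 to 0.14 (Zfp689) and -0.079 to 0.015 (Zfp960). The causes were not tested. In all, 31 of 528 single-member values under alternatives, in 12 of 33 named members, changed sign, and none had an adjusted p under 0.05 by limma. With the replicate number as a block, 0 members had an adjusted p under 0.05, 3 were higher and 11 lower at an unadjusted p under 0.05, and 9 cofactors passed. Over all tested genes, 11.8% were then higher and 3.79% lower.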

Other observations

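Zfp950 varied more between dishes than any other member and was named for that, after its values were seen. Its TPM was 12.3, 35.4, 11.6 and 11.8 in control dishes and 9.62, 7.75, 53.8 and 10.4 in exposed dishes. Control dish 2 and exposed dish 3 stood apart from the other 6 dishes, and the coefficient of variation within conditions was 93.5%, against a median of 6.49% over the members. No 150-base stretch of it occurred in another gene of the annotation.

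The imprint keepers Zfp57 and Zfp445, also named after their values were seen, were among the most abundant KRAB members. Zfp57 had TPM values of 52.6, 57.9, 56.0 and 50.8 in control dishes and 47.7, 52.6, 49.9 and 57.2 in exposed dishes. The groups overlapped, with a log2 difference of -0.067 (limma adjusted p = 0.643). Zfp445 had values of 46.2, 48.9, 51.9 and 49.6 against 43.1, 47.8, 48.0 and 49.3, with a log2 difference of -0.064 (limma adjusted p = 0.586), and overlapped too.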
